A study of Homo sapiens with 2 samples.

Results

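The RNA of 10 marrow homing, integrin and adhesion genes was read in ARP1-SRD5A1-KD cells. The genes were chosen by name, as the rows of the deposited tables for CXCR4, ITGA4, ITGB1, ITGB2, ITGB7, ITGAL, CD44, ICAM1, ICAM2 and ICAM3, and all 10 were found among 57485 genes. ARP1 is a human multiple myeloma (MM) cell line, and these cells carried a lentivirus that makes a hairpin RNA against SRD5A1, the steroid 5α-reductase type I, once doxycycline (Dox) switches on its promoter. Both libraries came from cells with the hairpin, 1 labelled without Dox (written Dox-) and 1 labelled with it (Dox+), so no difference below has a replicate check and no p-value is given. In the Dox+ library the genotype was labelled with SRD5A2, whereas the title gives SRD5A1. For these libraries the Dox dose, its duration and whether the cells came from 1 clone are not given in the sources used here. Dox-treated cells without the hairpin were not analysed here, so Dox and the hairpin cannot be told apart.

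Plasma cells reach and stay in the marrow through a few surface proteins. CXCR4 is the receptor that follows the stromal chemokine CXCL12. Integrins are pairs of 1 alpha and 1 beta chain that grip matrix or other cells: the alpha 4 chain (ITGA4) with beta 1 (ITGB1) forms VLA-4, which holds VCAM-1 and fibronectin, and with beta 7 (ITGB7) forms a receptor for MAdCAM-1. The alpha L chain (ITGAL) with beta 2 (ITGB2) forms LFA-1, which binds the intercellular adhesion molecules ICAM1, ICAM2 and ICAM3 on neighbouring cells, and CD44 binds hyaluronan.

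The libraries held 45918570 and 48728927 expected counts, where an expected count is an estimated number of reads of a gene. Levels are given as FPKM, which divides reads by gene length and by depth, so levels may be compared between genes. SRD5A1, the gene the hairpin targets, was listed with 13.04 FPKM in the library labelled Dox- and 25.88 FPKM in the one labelled Dox+, although the hairpin should lower it, and every direction below rests on those labels. Plasma cell genes were present in both libraries, with IRF4 at 409.73 and 513.92 FPKM and XBP1 at 834.39 and 715.87 FPKM, and 11 of 12 such markers reached 1 FPKM. The exception was CD27, at 0.06 and 0.18 FPKM. Markers of other cells were low. The summed FPKM was 1.52 and 1.29 over 6 B cell genes and 1.82 and 1.88 over 8 T and NK cell genes. It was 0.6 and 1.14 over 9 myeloid genes, and 0.65 and 0.67 over 10 stromal and endothelial genes. Of these genes only PAX5 and GNLY reached 1 FPKM in either library. PAX5, a B cell gene, was listed with 447 and 321 counts (1.32 and 0.79 FPKM). GNLY, of the T and NK cell genes, had 1.12 FPKM in both. In such bulk RNA, fewer cells of a kind and less RNA per cell cannot be told apart.

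ITGB7 and ITGA4 had the most RNA of the 10 genes in both libraries, and ITGB2 the least. Between the libraries, ITGB2 and ITGAL were more than 2-fold higher and ICAM2 was lower by more than 2-fold in the library labelled Dox+, and the other 7 genes stayed within 2-fold. A log2 fold change here is log2 of the FPKM with Dox plus 0.1 over the FPKM without Dox plus 0.1, and it was computed for the 14859 genes that reached 1 FPKM in either library, a filter that ITGB2 passed only through the library where it was higher. Of these genes 17% were more than 2-fold higher with Dox and 6.41% more than 2-fold lower, beside 2 and 1 of the 10 members. The median log2 fold change was 0.21 for the members and 0.15 for all genes tested. Among all genes past 2-fold, 72.6% were higher, and 56.8% with the TMM factors of edgeR applied to counts, which moved the median of all tested genes to -0.04. The counts of 5 members (ITGB1, ITGB7, ICAM1, ICAM2 and ICAM3) were not whole, as where a read that fits several genes is divided among them. Of all genes with a count, 33.8% in the Dox- and 33.6% in the Dox+ library were not whole. By FPKM, ITGB7, ITGA4, CD44 and ITGB1 took ranks 1 to 4 in both libraries, and CXCR4, ICAM1 and ITGB2 took ranks 8 to 10 in both. ICAM3 took rank 6 in both, and ICAM2 and ITGAL changed places, as ICAM2 went from rank 5 to rank 7 and ITGAL from rank 7 to rank 5. Whether neighbours in this order differ beyond the spread between samples cannot be read from 1 library each.

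**Figure D1:**
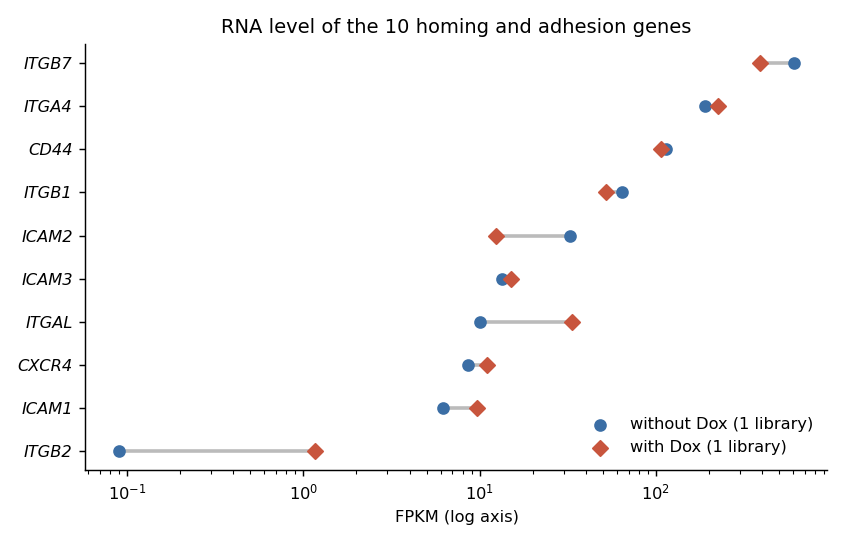
FPKM of the 10 genes on a log axis, ordered by the Dox- library, with 1 point per library (circle, without Dox; diamond, with Dox) and no error bars, since there is 1 library per group. The gaps are widest for ITGB2 (0.09 and 1.16 FPKM), ITGAL (10.07 and 33.46) and ICAM2 (32.6 and 12.45).

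ITGB7, the beta 7 chain, was listed with 606.32 FPKM without Dox and 391.65 FPKM with Dox, from 59679.32 and 42617.43 counts. It was the integrin gene with the most RNA, above 98.8% and 98.4% of the tested genes, and it was lower in the library labelled Dox+. The log2 fold change was -0.63, and 14.1% of the tested genes had a lower one. The ratio of its counts per library total was -0.57 on the log2 scale, with a 95% interval of -0.59 to -0.55. Such intervals were computed by the exact Clopper-Pearson method from the counts and cover counting error only. ITGB7 (ENSG00000139626.15) lies on the reverse strand of chromosome 12 from 53191318 to 53207307 in GRCh38, and 1886 of its exon bases are shared with ZNF740 on the other strand, a gene that was listed with 4964.68 and 5930.57 counts.

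ITGA4, the alpha 4 chain that pairs with beta 1 or beta 7, was listed with 189.35 FPKM without Dox and 224.68 FPKM with Dox, from 28002 and 37524 counts. Its log2 fold change was 0.25, higher than in 54.9% of the tested genes and so near the middle of the table. ITGB1, the beta 1 chain shared by many integrins, was listed with 63.98 and 52.18 FPKM, from 8442.42 and 7764.48 counts. Its log2 fold change was -0.29, and the log2 ratio of its count rates was -0.21, with an interval of -0.25 to -0.16. The pseudogene ITGB1P1, a near copy of it, was listed with 270.58 and 322.52 counts, and the 2 together had a log2 ratio of -0.19 (interval -0.24 to -0.15). ITGA4 (ENSG00000115232.13) lies on chromosome 2 from 181457202 to 181536187, and ITGB1 (ENSG00000150093.18) on chromosome 10 from 32900319 to 33005792.

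Both beta chains that can join alpha 4 were thus lower in the library where alpha 4 was higher. The FPKM of ITGB7 was 3.2 times that of ITGA4 without Dox and 1.74 times with Dox. For ITGB1 the ratio to ITGA4 was 0.338 and 0.232. ITGB7 stayed above ITGB1, at 9.48 and 7.51 times its FPKM, so beta 7 took 90.5% and 88.2% of the summed FPKM of these beta chains. The sum itself was 670.3 FPKM without Dox and 443.83 FPKM with Dox. In each library the summed beta chain RNA exceeded that of alpha 4. RNA levels do not give the amount of the paired protein.

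**Figure D2:**
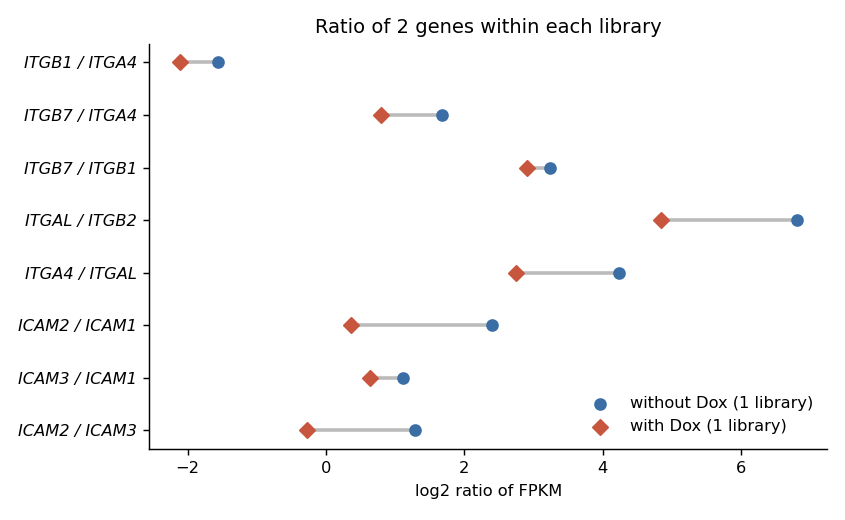
Log2 ratio of the FPKM of 2 genes within each library (circle, without Dox; diamond, with Dox; 1 library each, no error bars). The ratio of ITGB7 to ITGA4 went from 1.68 to 0.80 and that of ICAM2 to ICAM3 from 1.28 to -0.27, the only pair drawn whose ratio lies on both sides of 0.

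The promoters of the alpha 4 and beta 7 genes are shown because these were the members with the most RNA. RefSeq promoters, 250 bases before to 50 after a start, were at hand for 7 of the 10 members (12 promoters, build GRCh38.p14), and ITGB2, ITGAL and ICAM2 had no entry. Both strands were searched for 6 short motifs. These were GGNNNTTCC for NF-κB, TGCTGA for part of the element of MAF proteins, GGGCGG for SP1, and TATAAA for the TATA box. The other two were TGANTCA for AP-1 and TGATGNAA for the element of ATF4 with C/EBP. Among the member promoters, matches overlapped only in CXCR4 (SP1 with SP1, and TATA on both strands) and ITGB1 (TATA on both strands). Capitals mark the matches. The ITGA4 promoter, on the forward strand at chr2:181457136-181457435, held TGCTGA at -174 from the start, a motif in 17.3% of 35116 promoters. The ITGB7 promoter, on the reverse strand at chr12:53207202-53207501, held none of the 6.
ITGA4: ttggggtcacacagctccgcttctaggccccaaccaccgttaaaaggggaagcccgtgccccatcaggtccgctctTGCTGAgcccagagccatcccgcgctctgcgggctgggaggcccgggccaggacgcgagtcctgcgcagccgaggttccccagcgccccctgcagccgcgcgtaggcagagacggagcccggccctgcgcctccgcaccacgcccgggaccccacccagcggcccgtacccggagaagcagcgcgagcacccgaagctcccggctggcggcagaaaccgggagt
ITGB7: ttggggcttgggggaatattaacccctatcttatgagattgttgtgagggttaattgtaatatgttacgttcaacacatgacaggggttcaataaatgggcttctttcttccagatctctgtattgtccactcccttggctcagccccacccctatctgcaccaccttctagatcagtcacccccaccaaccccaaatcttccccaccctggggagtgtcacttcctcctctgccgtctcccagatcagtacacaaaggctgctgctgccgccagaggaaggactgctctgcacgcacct

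MAF, a transcription factor that is known to raise ITGB7, CCND2 and CCR1 in part of the myelomas, was looked up after these values were seen. It was listed with 37.55 FPKM without Dox and 52.39 FPKM with Dox. CCND2, a D cyclin, was listed with 148.55 and 142.31 FPKM, and CCR1, a chemokine receptor, with 83.7 and 39.02 FPKM. MAF was thus listed higher in the library where ITGB7 and CCR1 were lower, and CCND2 was nearly level. Whether MAF bears on these differences was not tested.

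ITGAL, the alpha chain of LFA-1, was listed with 10.07 FPKM without Dox and 33.46 FPKM with Dox, from 1335 and 4641 counts. Its log2 fold change of 1.72 was higher than in 93.3% of the tested genes, and its count rates had a log2 ratio of 1.71 (interval 1.62 to 1.80). It passed from the middle of the tested genes, percentile 49.7 by FPKM, to percentile 76. ITGAL (ENSG00000005844.17) lies on chromosome 16 from 30472658 to 30523185, and the antisense genes that share its exons were listed with 0 counts in both libraries.

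ITGB2, the beta 2 chain that LFA-1 needs to reach the cell surface, was listed with only 6 counts and 0.09 FPKM without Dox and 67 counts and 1.16 FPKM with Dox. Its log2 fold change was 2.73, the largest of the members, but it rests on few counts: the log2 ratio of its count rates was 3.40, with an interval of 2.20 to 4.89, and with a pseudocount of 1 FPKM the log2 fold change was 0.99. The partners of LFA-1 were thus far apart in both libraries, as ITGAL had 112 times the FPKM of ITGB2 without Dox and 28.8 times with Dox. ITGB2 (ENSG00000160255.17) lies on the reverse strand of chromosome 21 from 44885953 to 44931989. Its antisense gene ITGB2-AS1 shares 303 exon bases with it and was listed with 29 and 33 counts, and reads of such a pair cannot be told apart where strand was not used, which is not given in the sources used here.

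**Figure D3:**
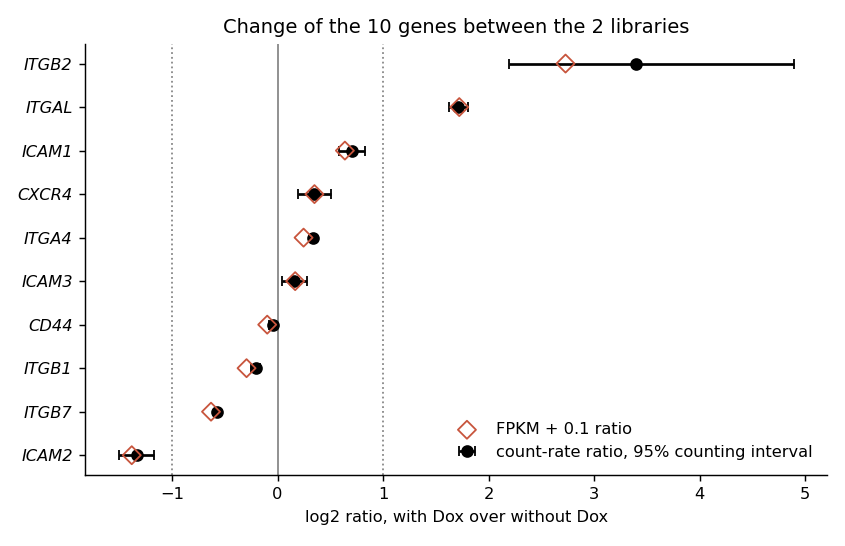
Log2 ratio of the Dox+ over the Dox- library for the 10 genes: black points give the ratio of count rates with a 95% counting interval, open diamonds the ratio of FPKM plus 0.1, and dotted lines mark 2-fold. ITGB2 has the widest interval, 2.20 to 4.89, and 7 genes lie between the dotted lines.

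The ICAM genes, whose proteins are the partners of LFA-1 on other cells, split. ICAM2 was listed with 32.6 FPKM without Dox and 12.45 FPKM with Dox, from 1002.36 and 422.38 counts, a log2 fold change of -1.38 (count rate ratio -1.33, interval -1.50 to -1.17). Only 3.01% of the tested genes had a lower log2 fold change. ICAM1, the ICAM that inflammation induces in many cell types, was listed with 6.17 and 9.66 FPKM, from 809.65 and 1400.64 counts, a log2 fold change of 0.64 (count rate ratio 0.70, interval 0.58 to 0.83). ICAM3, found mostly on leukocytes, was listed with 13.4 and 15.06 FPKM, from 1064.67 and 1261.79 counts. Its log2 fold change was 0.17 but -0.06 with the TMM factors, so its direction depends on the scaling.

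ICAM2 held 62.5% of the summed FPKM of the 3 ICAM members without Dox and 33.5% with Dox. Its FPKM went from 5.28 to 1.29 times that of ICAM1, and from 2.43 to 0.827 times that of ICAM3, so ICAM3 led with Dox. The summed FPKM of the 3 was 52.17 and 37.17. Their summed counts were 2876.68 and 3084.81, a log2 ratio of count rates of 0.015 (interval -0.059 to 0.089). The lower sum with Dox thus holds for FPKM, which divides by gene length, and not for count rates. ICAM2 (ENSG00000108622.10, chromosome 17 from 64002594 to 64020634) shares 869 exon bases with PRR29 on the other strand, which was listed with 334.64 and 168.62 counts and so was also lower with Dox. How reads were split between these overlapping genes was not tested. ICAM3 (ENSG00000076662.9, chromosome 19 from 10333776 to 10339823) shares 2101 exon bases with an antisense gene listed with 295.33 and 412.17 counts. ICAM1 (ENSG00000090339.8, chromosome 19 from 10270835 to 10286615) shares 815 with one listed with 9.35 and 8.36 counts.

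The promoter of ICAM1 is shown since it is the member that NF-κB is best known to drive. On the forward strand at chr19:10270870-10271169 it held an NF-κB match at -186 from the start, 2 SP1 matches at -206 and -59, and a TATA match at -30. Of all promoters 20.1% held the NF-κB letters, 45% the SP1 letters and 11.5% the TATA letters. Among the 12 member promoters, 3 held the NF-κB letters, and none held those of AP-1 or of ATF4 with C/EBP, which 7.71% and 3.62% of all promoters held. A match shows the letters and not that a factor binds there.
ICAM1: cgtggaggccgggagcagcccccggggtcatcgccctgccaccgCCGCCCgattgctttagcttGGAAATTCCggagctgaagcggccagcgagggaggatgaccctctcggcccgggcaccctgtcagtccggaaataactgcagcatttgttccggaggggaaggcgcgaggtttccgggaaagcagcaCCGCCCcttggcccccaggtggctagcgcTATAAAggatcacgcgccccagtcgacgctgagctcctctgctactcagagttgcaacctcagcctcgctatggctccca

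CXCR4, the receptor for CXCL12, was listed with 8.57 FPKM without Dox and 10.95 FPKM with Dox, from 569 and 769 counts. The log2 fold change was 0.35 (count rate ratio 0.35, interval 0.19 to 0.51), and 60.2% of the tested genes had a lower one. It was the member after ICAM1 and ITGB2 with the least RNA, near the middle of the tested genes at percentiles 46.6 and 48.6 by FPKM. CXCR4 (ENSG00000121966.6) lies on the reverse strand of chromosome 2 from 136114349 to 136118165.

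CD44, the hyaluronan receptor, had the smallest difference of the 10 genes in FPKM and in TPM, but not with the TMM factors, which gave a log2 fold change of -0.26 beside -0.06 for ICAM3. It was listed with 114.23 FPKM without Dox and 106.74 FPKM with Dox, from 11209 and 11559 counts, a log2 fold change of -0.10 (count rate ratio -0.04, interval -0.08 to -0.004). In TPM it was 125.32 and 125.23. CD44 (ENSG00000026508.18) lies on chromosome 11 from 35138870 to 35232402, and 39 transcripts are listed for it, whose exon content was not examined.

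The tables also give the mean length of each gene, weighted by the transcripts that its reads were assigned to, which the choice of members did not use. The length was greater with Dox for 6 members and smaller for 4, beside 44.9% and 34.9% of the tested genes. For ITGB2 it was listed as 1676.86 and 1429.94 bases, but its length without Dox rests on 6 counts, so no transcript share is read from it. Bounds on the share of the transcripts with a consensus coding sequence (CCDS) follow from the mean length and carry no counting error. For ITGAL, with CCDS transcripts of 4673 and 5213 bases and mean lengths of 3130.94 and 3092.02 bases, the bounds were 45.2% to 63.5% without Dox and 44.1% to 62.6% with Dox. For ICAM1 they were 92.2% to 94.3% and 98.4% to 98.9%, so nearly all of its RNA was assigned to its 3252-base transcript. ITGB7 had bounds of 34.1% to 82.5% and 46.7% to 86.5%, which overlap. For ICAM2 the bounds were 0% to 63.1% without Dox and 0% to 68.8% with Dox. Its mean lengths of 912.48 and 941.95 bases lay below its shortest CCDS transcript of 1103 bases. Part of its RNA was thus assigned to other transcripts in both libraries. For CD44, whose mean length was 2379.97 and 2468.08 bases, the bounds of 14.2% to 100% and 16.5% to 100% say little.

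Among all 26 integrin chain genes of the list, 12 had at least 1 FPKM in at least 1 library. ITGB7, ITGA4 and ITGB1 led in both libraries, followed by the beta 5 chain ITGB5 at 54.71 and 43.83 FPKM. Over all genes tested, 17% passed 2-fold upward and 6.41% downward with a median of 0.15, the background for each list below. Of the 16 alpha chains outside the members 5 were tested, of which 2 passed 2-fold upward with Dox and 0 downward. These were ITGAV, the alpha V chain that pairs with beta 5, at 4.18 and 10.54 FPKM (log2 fold change 1.31), and ITGA8, named after its values were seen, at 0.33 and 2.44 FPKM, which like ITGB2 passed the filter only through the library where it was higher. ITGAE, the alpha E chain that pairs only with beta 7, was listed with 23.53 and 23.21 FPKM, so it was level while ITGB7 was lower. Of the 5 other beta chains 2 were tested, and neither passed 2-fold. ITGAM, the alpha M chain of myeloid cells and another partner of beta 2, was listed with 0 and 8 counts.

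Integrins grip only once talins and kindlins bind their beta tails. Of 24 such activators and linkers 20 were tested, of which 3 passed 2-fold upward and 1 downward, beside 17% and 6.41% of all genes tested. Their median log2 fold change was 0.05, beside 0.15 over all genes tested. FERMT3, the kindlin of blood cells, was the lower one, at 75.38 FPKM without Dox and 32.92 FPKM with Dox (log2 fold change -1.19). The kindlin FERMT1 was listed with 9.63 and 4.94 FPKM (-0.95). APBB1IP, which links RAP1 to talin, was higher, at 4.96 and 10.54 FPKM (1.07). The other genes past 2-fold, named after their values were seen, were the kindlin FERMT2 at 0.72 and 4.03 FPKM and the talin TLN2 at 0.4 and 1.31 FPKM, and both passed the filter only through the library where they were higher. The main talin of blood cells, TLN1, was listed with 47.06 and 38.68 FPKM.

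Of the 8 ligands of the member integrins besides the ICAM members, 3 were tested and none passed 2-fold. The endothelial and gut partners of alpha 4 were near 0, as VCAM1 was listed with 0 and 2 counts and MADCAM1 with 8 and 34 counts. ICAM5 was listed with 11.64 and 7.43 FPKM, and FN1, the fibronectin gene, with 2.67 and 4.31 FPKM. In the CXCR4 axis 13 of 16 genes were tested, none passed 2-fold and the median was -0.48, beside 0.15 over all genes tested. CXCL12, the ligand, was listed with 0 and 1 counts and ACKR3, its other receptor, with 1 and 1. ARRB2, an arrestin that turns CXCR4 off, was listed with 31.74 and 18.28 FPKM (log2 fold change -0.79), and GNAI2, a G protein subunit that it signals through, with 119.2 and 73.64 FPKM (-0.69).

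Of 14 other chemokine and S1P receptors, which guide lymphocytes and plasma cells, 6 were tested. Of the 6, 1 passed 2-fold upward and 2 downward, beside 17% and 6.41% of all genes tested. CCR10, the receptor of plasma cells that settle at mucosa and skin, was listed with 16.01 and 48.04 FPKM (log2 fold change 1.58), and CCR1 with the values above (-1.10), whereas S1PR4 was listed with 26.08 and 19.65 FPKM (-0.41). CXCR3, singled out after its values were seen, went from 193 counts and 3.04 FPKM without Dox to 3 counts and 0.04 FPKM with Dox. The log2 ratio of its count rates was -6.09 (interval -8.38 to -4.52). It passed the filter only through the Dox- library, where it was higher.

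Around CD44, 10 of 15 partner genes were tested, of which 1 passed 2-fold upward and 2 downward, beside 17% and 6.41% of all genes tested. Their median was 0.31, beside 0.15. MSN, the moesin that ties CD44 and the ICAM proteins to the actin cortex, was listed with 250.03 FPKM without Dox and 91.18 FPKM with Dox (log2 fold change -1.45), and the hyaluronidase HYAL2 with 10.6 and 3.51 FPKM (-1.57). ESRP1 is an epithelial splicing factor known to keep the variant exons of CD44. It was listed with 5 counts and 0.04 FPKM without Dox and 709 counts and 6.42 FPKM with Dox. The log2 ratio of its count rates was 7.06 (interval 5.83 to 8.69). This gene, the 1 past 2-fold upward, passed the filter only through the library where it was higher. Whether the exons of CD44 changed with it cannot be read from values per gene and was not tested.

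Of 12 genes for selectins, their ligand PSGL-1 and its glycosylation, 7 were tested, of which 0 passed 2-fold upward and 1 downward, with a median of -0.34. The 1 was GCNT1, a branching enzyme of O-glycans named after its values were seen, at 2.07 and 0.48 FPKM. It too passed the filter only through the Dox- library, where it was higher. SELPLG, which encodes PSGL-1, was listed with 73.5 and 56.05 FPKM, and the sulfotransferase TPST2 with 38.65 and 22.07 FPKM. Of 12 tetraspanins, which cluster integrins in the membrane, 10 were tested and none passed 2-fold, with a median of -0.53. TSPAN14 was listed with 5.82 and 2.96 FPKM (-0.95), CD151 with 89.08 and 48.22 FPKM (-0.88), and TSPAN33, in the other direction, with 25.91 and 47.94 FPKM (0.89). Of 21 other adhesion molecules 13 were tested, of which 5 passed 2-fold upward and 0 downward, beside 17% and 6.41% of all genes tested. CD48 was listed with 84.57 and 189.31 FPKM (log2 fold change 1.16) and SLAMF7, a myeloma antigen, with 15.73 and 41.75 FPKM (1.40). The other 3, named after their values were seen, were NCAM1, JAM2 and ALCAM, each under 5 FPKM. Of these, NCAM1 and JAM2 passed the filter only through the library where they were higher. SDC1, the plasma cell syndecan, was listed with 344.56 and 236.58 FPKM (-0.54).

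By the GO terms in the tables, 9 of the 10 members carry cell adhesion, 8 leukocyte migration, 7 leukocyte cell-cell adhesion, 6 cell-matrix adhesion and 5 integrin-mediated signaling. Over the 770 tested genes of cell adhesion 14.2% passed 2-fold upward and 9.48% downward, with a median log2 fold change of -0.02. All genes tested had 17% higher and 6.41% lower, with a median of 0.15. Over the 129 tested genes of cell-matrix adhesion 20.2% were higher and 3.88% lower, and over the 191 of leukocyte migration 15.7% were higher and 12.6% lower. Over the 263 of leukocyte cell-cell adhesion 11.8% were higher and 12.9% lower, and over the 68 of integrin-mediated signaling 17.6% were higher and 8.82% lower. The terms share genes with one another and with the members.

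The study identified its changed genes with edgeR, whose dispersion cannot be estimated from 1 library per group. Here a call needed a false discovery rate (FDR) under 0.05 and a change past 2-fold by edgeR, so a gene within 2-fold could not be called. With an assumed biological coefficient of variation (BCV) of 0.4, the exact test called 0 of the 10 members, and 0.707% of 19934 genes higher and 0.125% lower. With a BCV of 0.2 it called ITGB2 and ITGAL higher and ICAM2 lower, beside 9.82% of the genes higher and 5.68% lower. Such a test sets 2 libraries side by side and says nothing of how the conditions vary.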

How the data were processed

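Poly(A) RNA of 2 ARP1 libraries was sequenced as paired reads of 150 bases. The authors deposited expected counts per gene, TPM and FPKM, which scale those counts by effective length and depth, and a length per gene weighted by its transcripts. Per the labels, Bowtie 0.12.2, HISAT2 2.1.0, StringTie 1.3.4d and the build hg19 are named without roles. All 160 member transcripts are in GENCODE 29, whose GRCh38 coordinates are used.

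Log2 fold changes used FPKM plus 0.1 and genes that reached 1 FPKM in either library. Rounded counts went to edgeR 4.0.16 (TMM, exact test with an assumed BCV, at least 10 counts) and DESeq2 1.42.0 (size factors) in R 4.3.3. An edgeR call needed an FDR under 0.05 and a log2 fold change past 1 in either direction. Python 3.11.15 was used with pandas 2.3.3, numpy 2.4.6, scipy 1.17.1 and matplotlib 3.10.9. In counts simulated for 19934 genes, 200 and 164 of 200 changed by 4 on the log2 scale were called at a BCV of 0.2 and 0.4, with 8 and 3 unchanged genes called. These counts were drawn with the BCV that the test assumed, and the planted changes were larger than those of the members. The calls on the members were thus not checked by it. The width of a counting interval follows from the counts of the gene itself, and the depths of 45918570 and 48728927 counts only scale the ratio.

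All members and lists were chosen with earlier results of these data known. The genes named are the members, SRD5A1, per list up to 3 of the largest changes among genes that reached 5 FPKM, and genes listed at 0. Genes outside this rule and the promoter motifs were chosen after values were seen. These genes included MAF and its targets, ITGB1P1, TLN1, FN1, SDC1, IRF4, XBP1, PAX5, GNLY and others near 0 counts. They also included ITGA8, FERMT2, TLN2, NCAM1, JAM2, ALCAM, GCNT1 and CXCR3.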

Additional observations from a re-analysis of the deposited data

How the results depend on the processing

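No paired analysis was possible because each condition has only 1 library, and for the same reason no library could be left out. ITGB2, ITGAL and ICAM2 kept their directions under 7 scalings and pseudocounts, with log2 fold changes of 0.99 to 3.55, 1.49 to 1.82 and -1.54 to -1.29. Of the other members ICAM3 alone changed sign, with -0.06 under the TMM factors. The count of members more than 2-fold higher was 1 with a pseudocount of 1 FPKM and 1 with at least 5 FPKM, each time without ITGB2. With the edgeR test at a BCV of 0.4, 0 members were called higher and 0 lower. Summing ITGB1 with ITGB1P1, chosen after seeing the data, left 2 higher and 1 lower.

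Over all genes, those more than 2-fold higher numbered 1606 with a pseudocount of 1 FPKM, and without a filter there were 4735 higher and 1897 lower. With at least 5 FPKM there were 1256 higher and 603 lower, from fewer genes tested, and with edgeR at a BCV of 0.4, 141 higher and 25 lower. Depth limits ITGB2 most, with 6 counts without Dox.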
